A study of Mus musculus with 2 samples.

Results

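Divergent gene pairs are protein-coding genes that lie head to head on opposite strands and are transcribed away from each other, so that the DNA between their 5′ ends serves as the promoter region of both. The pairs were taken from the GENCODE M21 annotation of mouse autosomes, with 5′ ends at most 1 kb apart, each gene having the outermost 5′ end of its model. An accessible site was a member when it overlapped the DNA between the 5′ ends of a pair or lay within 200 bp of either. The rule gave 734 pairs, which held 1448 (6.96%) of 20807 autosomal protein-coding genes. At these pairs lay 878 of 92461 autosomal peaks (0.95%) in replicate 1 and 833 of 75564 (1.10%) in replicate 2, or 856 ± 31.8 member peaks per library (mean ± SD, n = 2).

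The data are DNase-seq of lung from 14-day-old males of B6CASTF1/J, a hybrid cross of C57BL/6J and CAST/EiJ mice. DNase I cuts open chromatin more readily than packed chromatin, and sequencing of the cut ends marks accessible sites as peaks and protected stretches within them as footprints. The 2 libraries are replicates of 1 group: the labels call replicate 2 a pool of 3 males and name no pool for replicate 1. Both carry the same donor record, and whether they share animals is not known. There was no contrast between groups, so the values of the 2 libraries stand side by side. Of 25 autosomal markers of lung cell types, 23 had a peak within 200 bp of the 5′ end in replicate 1 and 21 in replicate 2, whereas 0 of 12 markers of liver, heart, neurons and blood had one in either library (exact 95% upper bound 26.5%). In the longer lists used below the contrast was smaller. Outside the pairs, 70.9% and 65.0% of 117 lung genes had such a peak. Of 89 genes of other tissues outside the pairs, 14.6% had one in each library. Whole tissue mixes many cell types, and a site open in few cells cannot be told apart from one weakly open in many. Read depth is unknown, because the files give no counts.

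Head-to-head genes are common in mammalian genomes and are known for housekeeping functions such as DNA repair, mitochondrial translation and histone synthesis. Their shared promoters are usually CpG islands, stretches rich in CpG dinucleotides that stay unmethylated and free of nucleosomes in most tissues. Many lack a TATA box, the element that fixes the position and direction of transcription at a minority of promoters. RNA polymerase can then start on both strands from the edges of 1 nucleosome-depleted region.

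The 8 pairs printed here show the range of layouts, from the most accessible pair to pairs without a peak. The letters are those of the GRCm38 plus strand, printed 5′ to 3′, and capitals mark exact matches to the 14 short motifs that were searched on both strands. For open pairs the stretch is the highest-scoring peak of replicate 1, and for the last 2, which had no peak, it is the 200 bp around the midpoint. Hjurp/Trpm8 (chr1:88277541-88277760) is the pair with the highest scores, its minus-strand and plus-strand 5′ ends at bases 93 and 121, with an ETS match on the minus strand.
Hjurp/Trpm8: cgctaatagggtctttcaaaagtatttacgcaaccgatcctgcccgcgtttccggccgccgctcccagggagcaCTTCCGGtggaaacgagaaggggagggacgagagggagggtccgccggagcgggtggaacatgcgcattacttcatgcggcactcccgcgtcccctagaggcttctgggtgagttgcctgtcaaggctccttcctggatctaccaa
Bag4/Lsm1 (chr8:25785161-25785360) has adjacent 5′ ends at bases 127 and 128, between an NFY and an SP match.
Bag4/Lsm1: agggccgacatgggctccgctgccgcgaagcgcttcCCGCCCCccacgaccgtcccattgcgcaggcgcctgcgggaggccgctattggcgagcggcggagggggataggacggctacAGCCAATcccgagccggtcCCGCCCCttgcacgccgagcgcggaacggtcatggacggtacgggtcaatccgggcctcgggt
Atm/Npat (chr9:53536681-53536980, the first 300 bp of a 360-bp peak) has the Atm 5′ end at base 60 and an NRF1 match at bases 35 to 42.
Atm/Npat: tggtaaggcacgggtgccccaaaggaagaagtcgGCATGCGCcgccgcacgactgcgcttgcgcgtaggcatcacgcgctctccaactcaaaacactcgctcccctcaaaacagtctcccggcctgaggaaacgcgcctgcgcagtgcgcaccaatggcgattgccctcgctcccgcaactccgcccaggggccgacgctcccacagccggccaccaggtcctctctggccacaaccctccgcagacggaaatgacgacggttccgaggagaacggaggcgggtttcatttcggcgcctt
Abca17/Abca3 (chr17:24351841-24352080) belongs to a gene of surfactant secretion, with the Abca3 5′ end at base 110.
Abca17/Abca3: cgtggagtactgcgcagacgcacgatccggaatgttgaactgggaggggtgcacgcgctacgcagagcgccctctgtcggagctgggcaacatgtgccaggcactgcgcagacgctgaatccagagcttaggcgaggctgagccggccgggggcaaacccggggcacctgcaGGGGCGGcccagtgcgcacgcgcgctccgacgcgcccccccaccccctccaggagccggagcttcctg
Hist1h2bf/Hist1h2ad (chr13:23574261-23574440) is an open histone pair with an NFY and a TATA match and the Hist1h2ad 5′ end at base 121.
Hist1h2bf/Hist1h2ad: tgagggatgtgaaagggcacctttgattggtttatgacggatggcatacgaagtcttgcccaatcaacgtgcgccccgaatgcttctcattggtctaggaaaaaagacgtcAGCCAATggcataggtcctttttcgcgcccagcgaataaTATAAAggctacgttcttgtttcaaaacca
Col4a4/Col4a3 (chr1:82586741-82587040, the first 300 bp of a 400-bp peak) is a weakly open pair without a match, its 5′ ends at bases 109 and 181.
Col4a4/Col4a3: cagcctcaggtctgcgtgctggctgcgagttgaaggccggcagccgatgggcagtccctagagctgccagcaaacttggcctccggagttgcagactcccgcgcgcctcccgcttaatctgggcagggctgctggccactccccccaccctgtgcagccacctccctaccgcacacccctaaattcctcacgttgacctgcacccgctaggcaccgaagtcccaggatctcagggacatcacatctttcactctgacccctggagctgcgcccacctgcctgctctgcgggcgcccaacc
Hist1h2ba/Hist1h2aa (chr13:23934209-23934408) is a pair of testis histone genes with no peak. Its NFY match is on the plus strand and its TATA match on the minus strand, whereas both are on the plus strand in the open histone pair.
Hist1h2ba/Hist1h2aa: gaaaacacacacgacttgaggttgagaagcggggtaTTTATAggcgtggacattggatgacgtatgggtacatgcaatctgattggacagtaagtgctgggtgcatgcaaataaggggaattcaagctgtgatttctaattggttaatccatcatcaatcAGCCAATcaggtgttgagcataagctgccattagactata
Kirrel2/Nphs1 (chr7:30457902-30458101), a pair of slit diaphragm genes of the kidney, had no peak and no match.
Kirrel2/Nphs1: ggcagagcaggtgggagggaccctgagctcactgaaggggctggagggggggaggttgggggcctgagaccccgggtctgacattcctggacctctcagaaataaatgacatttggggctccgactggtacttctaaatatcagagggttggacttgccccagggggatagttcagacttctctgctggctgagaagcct

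Nearly all divergent pairs were open in lung. A member peak was present at 698 pairs (95.1%) in replicate 1 and 696 pairs (94.8%) in replicate 2. In 694 pairs it was present in both libraries, in 4 in replicate 1 only, in 2 in replicate 2 only and in 34 in neither. In the 694 pairs open in both, the highest-scoring peaks of the 2 libraries overlapped in 678 (97.7%). The other 16 had their highest peaks at places that did not overlap.

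In equal windows of 200 bp either side of the gene 5′ end, 92.6% of paired genes had a peak in replicate 1 and 92.1% in replicate 2. Over all autosomal protein-coding genes the share was 57.2% in replicate 1 and 54.7% in replicate 2. Solitary genes, with no divergent coding or long noncoding partner within 1 kb, numbered 18602 and were open in 53.5% and 50.8%. A further 757 coding genes with a divergent long noncoding RNA (lncRNA) as their only partner stood between, at 80.7% and 79.3%. Paired genes exceeded solitary genes by 40.2 ± 1.56 percentage points (SD, n = 2), more than the spread between the libraries.

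The gap was smaller among genes of like CpG content. The median ratio of observed to expected CpG in 500 bp around the 5′ end was 0.830 for paired and 0.536 for solitary genes, and 68.4% against 32.2% had a ratio of at least 0.75. In that CpG-rich class 98.4% of paired and 93.0% of solitary genes were open in replicate 1, and 98.3% and 90.4% in replicate 2. With a ratio of 0.5 to 0.75 the shares were 90.1% and 76.7% in replicate 1, and with 0.25 to 0.5 they were 58.9% and 32.6%. The exact 95% intervals of paired and solitary genes did not overlap in these 3 classes in either library, whereas below 0.25, with 38 paired genes, they did. The intervals count each gene alone, although 1 peak can open both genes of a pair. When solitary genes were weighted to the CpG classes of paired genes, the gap was 8.29 points in replicate 1 and 10.9 in replicate 2. The weighting does not adjust for the partner's 5′ end in the window of a paired gene.

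**Figure D1:**
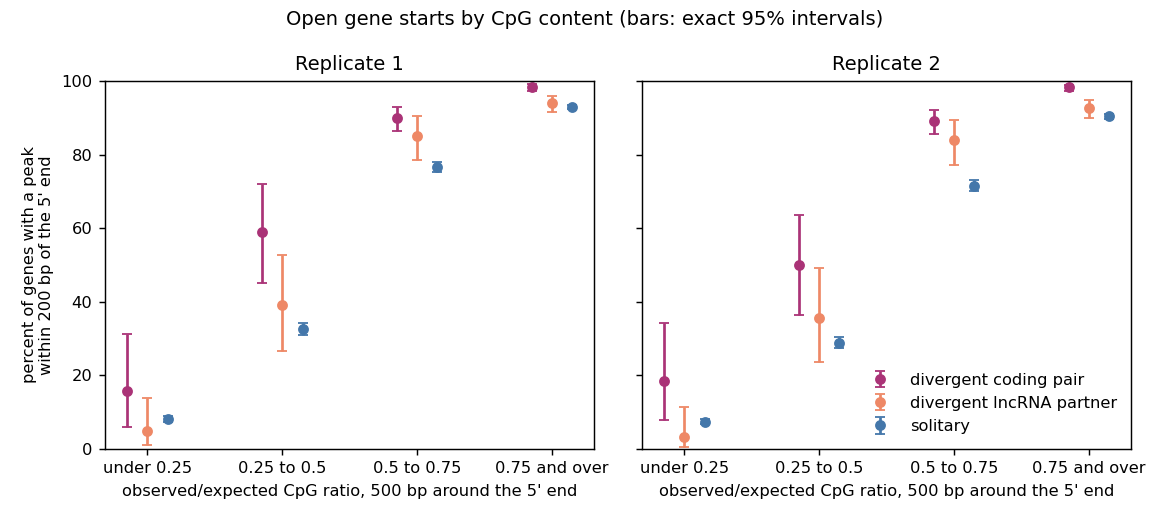
Percent of protein-coding genes with a peak within 200 bp of the 5′ end, by observed/expected CpG ratio, for genes of divergent coding pairs, genes with a divergent lncRNA and solitary genes in each library. Points are shares and bars exact 95% intervals. Paired genes are highest in each class, with 98.4% and 98.3% open in the CpG-rich class.

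Member peaks ranked high within their library. The authors' peak score was read as a percentile among all autosomal peaks of the same library, since its scaling is not stated. The median member peak was at percentile 93.8 in replicate 1 and 93.9 in replicate 2, peaks at coding-lncRNA pairs at 91.6 in both, and peaks at solitary promoters at 86.5 and 87.6. Distal peaks, over 1 kb away from any coding or lncRNA gene start, were at 44.2 and 43.4. The top decile held 64.01% and 67.5% of member peaks and 41.6% and 42.7% of solitary promoter peaks. Among peaks with a CpG ratio of at least 0.75 the medians were 94.7 and 94.6 for members and 90.7 in both libraries for solitary promoters, so the order was the same with a smaller distance. Median widths were 200 bp and 220 bp for members and 200 bp in both libraries for solitary promoters.

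**Figure D2:**
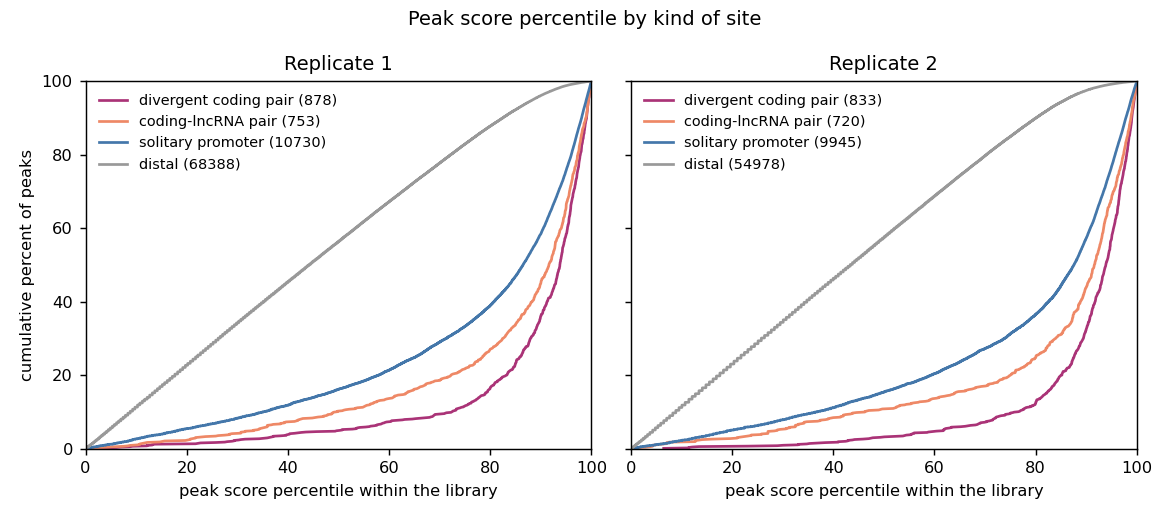
Cumulative percent of peaks against the percentile of the peak score within the library, for 4 kinds of site in replicates 1 and 2, with the number of peaks in each key. Curves further to the right are sites with higher scores. Member peaks, with medians of 93.8 and 93.9, lie to the right of the other kinds.

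Most open pairs had similar percentiles among all autosomal peaks in the 2 libraries. Their order within the pairs was not compared, and member peaks lay in a narrow band of percentiles (quartiles 86.0 and 97.2 in replicate 1, 87.6 and 97.3 in replicate 2). The highest peak of an open pair had a median percentile of 95.3 in replicate 1 and 95.1 in replicate 2, and 511 pairs (69.6%) were in the top decile in both. The median absolute difference between libraries was 1.16 percentile points, and 1 pair, Col4a4/Col4a3, differed by more than 20. These genes encode chains of basement membrane collagen and share a textbook bidirectional promoter. Their peak had a score of 1.88 (percentile 65.3) in replicate 1 and 1.17 (42.9) in replicate 2, among the lowest of the open pairs.

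Member peaks were also dense in footprints, with 19.6 per kb in replicate 1 and 19.7 in replicate 2. Coding-lncRNA pairs had 18.3 and 18.7, solitary promoters 17.5 in both libraries and distal peaks 14.1 and 12.9. In the CpG-rich class the densities were 20.4 and 20.2 for members and 18.6 in both libraries for solitary promoters. Member peaks also had higher scores, with medians of 8.48 and 9.47 against 4.99 and 5.36 for solitary promoters. Densities were not compared among peaks of like score, so the part of the score in them was not tested. Of member peaks, 94.7% of replicate 1 and 98.2% of replicate 2 overlapped a peak of the other library by at least 1 bp, against 90.6% and 97.6% of solitary promoter peaks and 73.7% and 89.8% of all autosomal peaks. In the CpG-rich class the shares were 96.97% and 98.8% for members and 93.2% and 98.7% for solitary promoters.

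The number of peaks at a pair was counted over the span and 200 bp on either side, so pairs further apart were searched over longer DNA. The median distance was 128 bp (quartiles 66.3 and 240.0, range 1 to 987), and 602 pairs (82.0%) had ends within 300 bp. At 1 to 100 bp, 89.8% of open pairs in replicate 1 and 90.9% in replicate 2 had a single peak. The share fell through 79.6% and 85.6% above 100 and up to 200 bp, 65.6% and 71.7% above 200 and up to 300 bp and 39.7% and 50% above 300 and up to 500 bp, to 27.9% and 35.6% above 500 bp. Over all open pairs 76.3 ± 3.30% (SD, n = 2) had 1 peak, with a margin of 0 bp 89.3% and with 500 bp 53.4%, and no pair had more than 4. The highest peak covered both 5′ ends in 56.2% and 55.5% of open pairs, 1 end in 34.1% and 35.2%, and neither in 9.74% and 9.34%. Its centre lay between the ends in 70.3% and 69.5%.

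**Figure D3:**
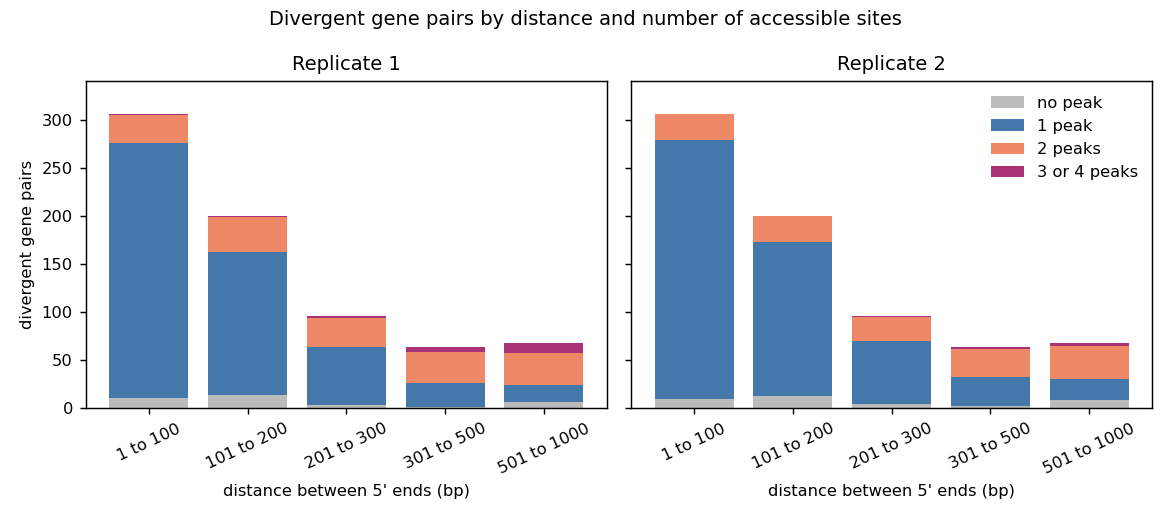
Number of divergent pairs in 5 classes of distance between 5′ ends, split by the number of member peaks, in each library. Pairs with 1 peak make up most of the classes up to 300 bp, and pairs with 2 or more peaks most of the open pairs above 500 bp.

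Cover at fixed positions does not depend on the length searched. Around the midpoint of all pairs, 76.3% were in a peak in replicate 1 and 75.9% in replicate 2, and 34.2% and 36.8% were in a footprint. For the 306 closest pairs 91.8% and 92.5% of midpoints were in a peak. For the 68 pairs above 500 bp the midpoint was in a peak in 13.2% in both libraries, and the cover was highest away from it, at 51.5% 360 bp on the plus-strand side in replicate 1 and 50% 300 bp on the minus-strand side in replicate 2. Cleavage above background reached further than the peaks. The authors' cleavage FDR was 0.001 or below over the whole span between the 5′ ends in 89.5% and 88.2% of pairs, including 45.6% and 36.8% of the pairs above 500 bp.

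**Figure D4:**
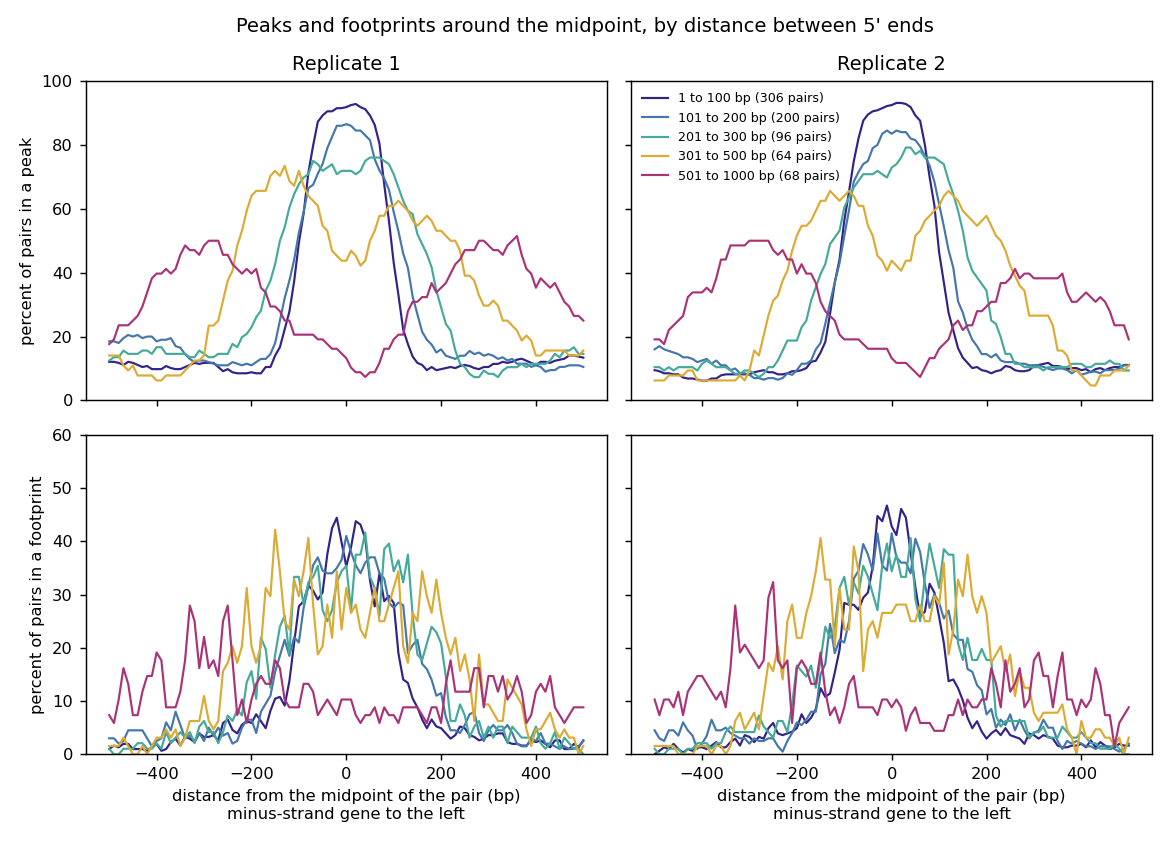
Percent of pairs whose base at each distance from the midpoint lies in a peak (top) or in a footprint (bottom), in steps of 10 bp, for 5 classes of distance between 5′ ends in each library. Pairs up to 300 bp apart show 1 broad summit around the midpoint, and pairs above 500 bp show a cover of 13.2% at the midpoint with higher cover on both sides.

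Single pairs show these layouts. Hjurp encodes the chaperone of the centromeric histone, and Trpm8 the cold-sensing ion channel of sensory neurons. Their 5′ ends are 28 bp apart, and the 1 peak had a score of 44.2 in replicate 1 and 44.8 in replicate 2, percentile 100 in both after rounding. Next came Pdhx/Apip (162 bp), with a subunit of the pyruvate dehydrogenase complex and a methionine salvage enzyme, at percentile 99.97 and 99.96. Fbh1/Ankrd16 (294 bp) followed with 99.98 and 99.92 and Rita1/Ddx54 (150 bp) with 99.89 and 99.97. In each of these 4 pairs both libraries ranked the peak near the top of the list.
At the other layout, Smim7/Tmem38a (967 bp) had 4 peaks in each library, the highest at percentile 98.1 and 98.96. Zfyve26/Rad51b (978 bp), with a recombination gene, had 2 peaks in each library and a highest percentile of 92.6 and 94.0.

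The share of paired genes differed between functional groups. Among 71 histone genes 27 were in pairs (38.0%), among 109 DNA repair and replication genes 30 (27.5%), among 71 genes of the transcription machinery 19 (26.8%), among 78 mitochondrial ribosome genes 18 (23.1%), among 100 respiratory chain genes 23 (23%), among 58 spliceosome genes 11 (18.97%) and among 123 cilium and centrosome genes 23 (18.7%). The share was 15.2% of 33 tRNA synthetase genes, 14.3% of 49 proteasome genes and 10.5% of 95 cytosolic ribosome genes. Over all genes the share was 6.96%. Of 385 zinc finger genes 20 were paired (5.19%), and of 1510 chemosensory receptors 2 (0.132%). These shares come from the annotation. Of 149 pairs with a gene of the 10 cell function groups, 143 were open in both libraries and 6 in neither, a share close to the 694 of 734 (94.6%) over all pairs. Their paired genes were open in 92.5% in both libraries (exact 95% interval 87.5 to 95.9), and the unpaired genes of the same groups in 86.5% (83.5 to 89.1) and 85.2% (82.1 to 87.9).

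DNA repair pairs were among the best known. Atm, the kinase of the double-strand break response, and Npat, a regulator of histone genes, are 307 bp apart, and 1 peak of 360 bp covered the Atm 5′ end and nearly the whole span in both libraries at percentile 99.3 and 99.1. Brca1/Nbr1 (194 bp) had 2 peaks in each library, the higher at 95.2 and 91.8. Mcm4/Prkdc (466 bp), of a replication helicase subunit and a repair kinase, also had 2 in each, the higher at 97.4 and 99.4. Aimp2/Pms2 (117 bp) had 2 peaks in replicate 1 and 1 in replicate 2. Toe1/Mutyh (83 bp) stood at 95.2 and 95.3, and Tsc2/Nthl1 (50 bp), with a base excision glycosylase, lower at 83.9 and 85.3. Of 30 repair pairs 29 were open in both libraries, a share near that over all pairs (94.6%).

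Further textbook pairs were open in both libraries too. Pdcd10/Serpini1 (691 bp), of a vascular malformation gene and a neuronal serpin, had 2 peaks in each library, the higher at percentile 99.5 and 99.6. Mrps12/Sars2 (172 bp), of a mitochondrial ribosomal protein and a mitochondrial seryl-tRNA synthetase, had 2 peaks in each, the higher at 94.1 and 94.3. At the shortest distances, Slc7a6os/Prmt7 (1 bp) had 1 peak at 95.3 and 96.2 and Dhrs1/Nop9 (3 bp) 1 peak at 89.0 and 85.4. At the longest, Btf3l4/Txndc12 (987 bp) had 3 peaks in each library and Asphd1/Sez6l2 (981 bp) had 1 in each, at 95.6 and 86.7.

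All 18 mitochondrial ribosome pairs were open in both libraries, with a median highest percentile of 94.7 in each, against 95.3 and 95.1 over all open pairs. Mrpl49/Fau, which also carries a cytosolic ribosomal protein gene, stood at 99.2 and 98.9. Of 23 respiratory chain pairs 22 were open, the highest being Wdr4/Ndufv3 at 99.2 and 99.6. The cytosolic ribosome group held 10 pairs, 9 of them open, among them Med22/Rpl7a at 99.96 and 99.88. Its symbol pattern also took in Rps6kb1, which is a kinase, and the collagen pattern took in Col4a3bp, which is a lipid transfer protein. All 23 cilium and centrosome pairs, 19 transcription machinery pairs, 11 spliceosome pairs, 7 proteasome pairs and 5 tRNA synthetase pairs were open in both libraries, near the 94.6% over all pairs at such numbers.

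Histone pairs had lower scores. Of 14 pairs, a small count, 11 were open in both libraries and 3 in neither. Over all pairs 694 of 734 (94.6%) were open in both. In each library 20 of the 27 paired histone genes had a peak within 200 bp of the 5′ end. Of the 44 unpaired histone genes 86.4% and 81.8% had one. The median highest percentile of the open histone pairs was 78.1 and 81.2, against 95.3 and 95.1 over all open pairs. Hist1h2bf/Hist1h2ad (185 bp), printed above, had the highest mean of the group, at 87.8 and 92.7, with 3 footprints in each library. Hist1h2an/Hist1h2bp (243 bp) was close, at 89.5 and 88. The 3 without a peak were Hist1h2ba/Hist1h2aa, which encode testis histones, and Hist1h2bq/Hist1h2ao and Hist1h2ap/Hist1h2br. In each of the last 2 the 32 bases at the midpoint occur 2 times on the GRCm38 chromosomes.

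Of 121 genes in 6 lists of lung cell types 4 were in pairs (3.31%, against 6.96% of all genes), a small count. Abca3 encodes the lipid transporter that loads surfactant into lamellar bodies of alveolar type 2 cells, and its 5′ end lies 882 bp from that of Abca17. The peak at Abca3 scored 12.1 (percentile 97.3) in replicate 1 and 12.9 (96.8) in replicate 2, while Abca17 had only a 50-bp peak at percentile 41.0 in replicate 2. Fam219a/Dnaic1 (237 bp), the latter a dynein chain of motile cilia, had 1 peak of 320 bp in each library at 97.9 and 98.6. Odf3l1/Cspg4 (354 bp), the latter the pericyte proteoglycan NG2, was weaker at 60.3 and 59.6. Pecam1/Milr1 (598 bp) had no member peak, although Pecam1 is an endothelial gene, and a peak lay in both libraries at another coding transcript start of Pecam1. Of 91 genes of other tissues 2 were paired, the muscle genes Ckm and Mylpf, and both pairs, Klc3/Ckm (75.1 and 81.4) and Tbc1d10b/Mylpf (94.7 and 93.9), were open. The Mylpf 5′ end had a peak within 200 bp in both libraries and that of Ckm in neither, the peak of that pair lying at Klc3.

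The 34 pairs without a peak were poor in CpG, with a median ratio of 0.359 against 0.845 for pairs open in both libraries. The ratio of a pair was taken in 500 bp around its midpoint. In pairs more than 500 bp apart that window holds neither 5′ end. The median ratio was 0.54 in these pairs and 0.83 to 0.86 in the closer classes. Of 55 pairs with a ratio under 0.5, 30 were open in both libraries and 21 in neither, while of the other 679 pairs 664 were open in both and 13 in neither. Kirrel2/Nphs1, with the podocyte gene nephrin, is printed above. The naming rule takes Aspa/Spata22, Ddx25/Pus3, Dgcr2/Tssk2, Hist1h2ap/Hist1h2br, Best1/Rab3il1, Bhmt2/Dmgdh, Fbxo44/Fbxo2 and Gml/Gml2. None of the 34 had a base of the span at a cleavage FDR of 0.001 or below in either library.
In 17 of the 34 a gene of the pair had a peak in both libraries at another coding transcript start, as in Rad51c, Xrcc1, Ndufa5, Trim28 and Rps2, so that the outermost 5′ end of the model was closed and an inner start open. In 14 no coding transcript start of either gene had a peak in any library. The larger peak lists added a peak at 7 of the 34 in at least 1 library and at 1 in both. The 32 bases at the midpoint occurred more than once on the GRCm38 chromosomes in 4 of the 34 pairs and in 4 of the 694 open ones. These were Pecam1/Milr1, with 4613 occurrences, and Gml/Gml2, Hist1h2bq/Hist1h2ao and Hist1h2ap/Hist1h2br, with 2 each. The part of repeated sequence in these calls was not tested.

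Pairs open in 1 library were few and mostly weak. Grik5/Zfp574 (percentile 40.01), Sirt1/Dnajc12 (25.7), Duox2/Duoxa2 (13.2) and Smyd1/Cd8b1 (1.72) had a peak in replicate 1 only, and Pcdh12/Rnf14 (55.7) in replicate 2 only. Zfp408/Arhgap1 had a higher peak, at percentile 97.9, in replicate 2 only. Replicate 1 had a peak at percentile 97.5 that began 1 bp beyond the margin around the Arhgap1 5′ end, so both libraries were open there. Sirt1/Dnajc12 likewise had a replicate 2 peak at percentile 85.5 that began 98 bp beyond the margin.

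Short sequence motifs of promoter-binding factors were counted in 300 bp around the midpoint of each pair and around the 5′ end of each solitary gene. The ETS core CCGGAAG was in 28.3% of pairs, 10.2% of solitary and 11.7% of all coding promoters. The CCAAT-type NFY motif AGCCAAT was in 14.9%, 8.01% and 8.46%, YY1's AAGATGGC in 8.31%, 3.18% and 3.55%, and the SP motif GGGGCGG in 45.1%, 28.5% and 30.4%. BANP's TCTCGCGAG was in 3.27%, 0.672% and 0.860%, and ZNF143's CTACAANTC in 3.95%, 1.58% and 1.70%.
Open promoters were then compared within the same CpG class. Among pairs and solitary genes open in both libraries with a CpG ratio of at least 0.75 (510 and 5382), ETS was in 32.7% of pairs (exact 95% interval 28.7 to 37.0) against 21.3% (20.2 to 22.4), and NFY in 14.9% (11.9 to 18.3) against 10.3% (9.48 to 11.1). The intervals of the other 12 motifs overlapped, among them SP, in 49.4% (45 to 53.8) against 54.1% (52.8 to 55.5). Over all open pairs and all open solitary genes, whatever their CpG content, SP was in 46.7% and 46.65%, ETS in 29.4% and 17.8% and NFY in 14.8% and 10.2%. Because the midpoint of a pair lies upstream of both 5′ ends, the CpG-rich solitary windows were also centred 64 bp upstream. ETS was then in 20.6% (19.5 to 21.7) and still below the pairs, while NFY, in 11.2% (10.3 to 12.02), overlapped them. YY1, in 5.69% (5.08 to 6.34) against 9.22% (6.85 to 12.1), no longer did. Both results depended on the window. In 200 bp around the midpoint or the 5′ end, without a shift, YY1 was in 5.69% of these pairs (3.84 to 8.065) and 5.44% of the solitary genes (4.85 to 6.08). NFY was then in 13.5% (10.7 to 16.8) and 8.19% (7.475 to 8.96), and ETS in 25.1% (21.4 to 29.1) and 17.8% (16.8 to 18.9). A pair window can hold promoter DNA of both genes, whereas a solitary window holds that of a single gene. The shares are thus per window and not per promoter, with or without the shift. The CpG-matched and shifted windows were chosen after seeing the data. A match is a description of the letters and no measure of binding.

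**Figure D5:**
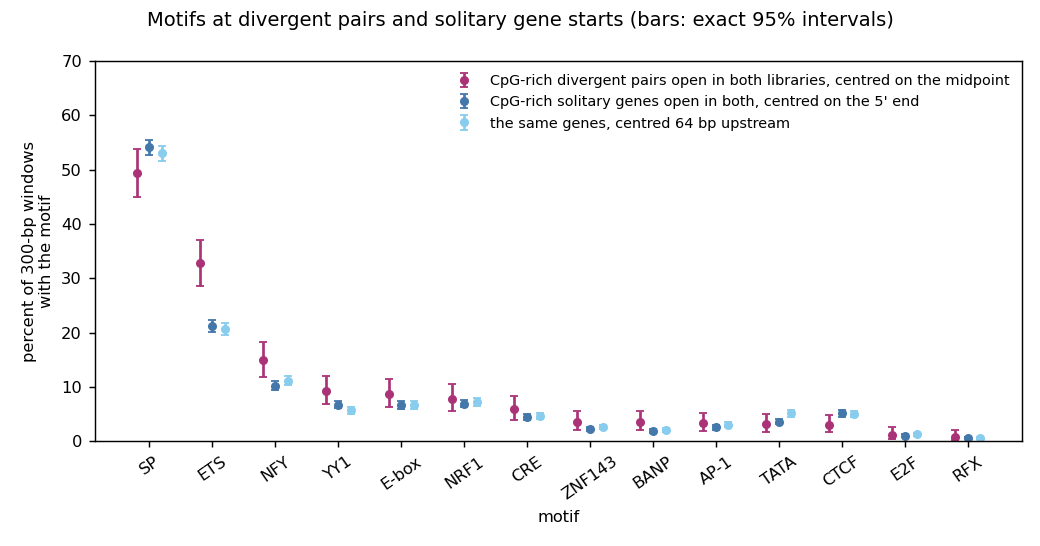
Percent of 300-bp windows with each of 14 motifs on either strand, for pairs and solitary genes open in both libraries with a CpG ratio of at least 0.75, the solitary genes centred on the 5′ end or 64 bp upstream. Points are shares and bars exact 95% intervals. ETS is in 32.7% of pairs and 21.3% of solitary windows with separate bars, while the bars of SP, at 49.4% and 54.1%, overlap.

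A TATA match at the usual place upstream of the annotated 5′ end was rare at paired genes. TATAAA on the sense strand 40 to 20 bp upstream of the 5′ end was present in 3 of 1448 paired genes (0.207%, exact 95% interval 0.0428 to 0.604) and in 511 of 18602 solitary genes (2.75%, 2.52 to 2.99). The 3 were Hist1h2bg, Foxa3 and Duoxa2. The count rests on outermost 5′ ends and leaves out matches at other places. In Hist1h2bf/Hist1h2ad, printed above, the TATA match lies at bases 151 to 156. That is downstream of the annotated Hist1h2ad 5′ end at base 121, so it was not counted. Among CpG-rich genes open in both libraries it was in 0 of 971 paired genes (upper bound 0.379%) and in 46 of 5382 solitary genes (0.855%, 0.626 to 1.14).

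Within member peaks some motifs lay mostly inside footprints. The CRE TGACGTCA was whole within a footprint in 34 of 37 matches in replicate 1 and 35 of 37 in replicate 2, and NRF1's GCATGCGC in 84.2% and 86.7% of 95 and 98 matches. The SP motif was within footprints in 61.9% and 72.3%, and BANP's in 70.5% and 58.1%. ETS matches were within footprints in 34.7% and 38.1% and NFY matches in 20.6% and 27.0%, while 32.2% and 34.2% of all bases of member peaks were in footprints. A share of whole matches and a share of single bases are unlike measures. At least 1 base lay in a footprint in 63.1% and 64.2% of ETS matches and in 46.32% and 47.45% of NFY matches. In solitary promoter peaks the shares of whole matches were 84.5% and 84.1% for CRE, 81.8% and 84.8% for NRF1, 74.7% and 68.2% for BANP, 50.9% and 59.9% for SP, 29.3% and 28.9% for ETS and 18.7% and 20.1% for NFY. Fewer of all bases of these peaks were in footprints than in member peaks, at 26.83% and 28.25%. The ETS match of Hjurp/Trpm8, printed above, is thus 1 of 268 in member peaks of replicate 1, of which 93 were whole in a footprint.

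These values rest on outermost gene ends. Counting also pairs whose 5′ ends overlap head to head gave 1480 member peaks per library.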

How the data were processed

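DNase-seq of lung was measured in 2 libraries. The authors aligned reads to mm10 and called each library alone, per the listings deposited with the files. The name of each tool and its version is not given in the sources used here. Peak files as deposited hold a signal value per peak, called the peak score, whose scaling is not stated; scores were used as percentiles among autosomal peaks of the same library. The smaller of the 2 peak lists of each library was used (94786 and 77403 peaks; larger lists 145663 and 117300). The deposited FDR files list runs of bases with a q-value of 0.05 or below, and the deposited footprint files carry the constant p-value threshold 0.01.

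Sequence was GRCm38 and genes GENCODE M21, both in mm10 coordinates. Score percentiles, shares with exact Clopper-Pearson 95% intervals and mean ± SD over 2 libraries were computed in Python 3.11.15 (numpy 2.4.6, pandas 2.3.3, scipy 1.17.1, pysam 0.24.0, matplotlib 3.10.9). Pair finding and overlaps were tested on simulated data. Intervals cover counting of genes, windows or motif matches only, and neighbouring windows are not independent. Of the pairs, 20 genes were in more than 1 pair, 3 pairs repeated the symbols of another under a second gene ID, and 23 and 20 member peaks lay at more than 1 pair. No test was run, since there is 1 group.

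Named pairs were textbook pairs from a list of 25, pairs with a lung or other tissue gene, the 5 highest scores, the 3 with most peaks, closed pairs in alphabetical order (the first 8 without Gm or Rik symbols), up to 5 pairs open in 1 library, the 2 highest of each of 25 gene groups, and the 3 shortest and 3 longest distances; some of these pairs are not reported here. Gene groups were symbol patterns or lists; the 10 cell function groups are histones, mitochondrial and cytosolic ribosome, respiratory chain, proteasome, tRNA synthetases, transcription machinery, cilium and centrosome, spliceosome, and DNA repair and replication. The 14 motifs, matched exactly on both strands, were ETS, NRF1, SP, NFY, YY1, CRE, E-box (TCACGTG), ZNF143, BANP, TATA, AP-1 (TGANTCA), CTCF (CCANNAGGG), RFX (GTTGCCATG) and E2F (TTTGGCGC). Members, lists, motifs and measures were chosen with earlier results of these data known. Alternatives were the larger peak list, the higher-scoring 50% of peaks, distance limits of 500 and 300 bp, margins of 0 and 500 bp, any coding transcript start, overlapping 5′ ends, no Gm or Rik models, each library left out, whole footprints, 50% reciprocal overlap, 200-bp motif windows, and, added after seeing the data, CpG weighting, CpG-matched pairs and shifted solitary windows for the motifs.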

Additional observations from a re-analysis of the deposited data

How the results depend on the processing

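Counting overlapping 5′ ends gave 1480 member peaks, 94.7% of pairs open and a gap between paired and solitary genes of 37.5 points, with a median percentile of 92.3, 67.8% of open pairs with 1 peak and 18.3 footprints per kb. With the larger peak list 95.7% of pairs were open, the gap was 36.7 points, the median percentile 95.9 and the density 19.3. With the higher-scoring 50% of peaks these were 93.7%, 45.9 points, 94.2 and 20.2. With ends at most 500 bp apart they were 95.7%, 42.4 points, 94.1 and 19.99, with 80.5% of open pairs having 1 peak. At most 300 bp gave 95.4%, 42.9 points, 94.2, 20.4 and 84.3% with 1 peak. A margin of 0 bp gave 92.6% open, a median percentile of 94.4, 89.3% with 1 peak and 20.6 footprints per kb, and a margin of 500 bp 95.6%, 91.4, 53.4% and 16.9. Any coding transcript start gave 93.2% open, 37.04 points, 93.3 and 19.1. Without Gm and Rik models 95.6% were open. Whole footprints alone gave 17.9 per kb. Weighting to CpG classes, added after seeing the data, gave a gap of 9.62 points. With 50% reciprocal overlap 90.9% and 95.2% of member peaks were shared between libraries. The median width was 210 bp (mean of the 2 libraries) in each alternative that kept both libraries. In 200-bp windows ETS was in 22.3% of pairs, SP in 37.2%, YY1 in 5.31% and CTCF in 2.32%. The causes of these shifts were not tested. Leaving out either library gave 833 to 878 member peaks, 94.8% to 95.1% of pairs open and a gap of 39.1 to 41.3 points. No paired analysis was possible because there is 1 group. Read depth is unknown, so the absence of a peak may be a limit of detection.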

Other observations

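Several textbook head-to-head pairs fell outside the rule on outermost gene ends. Of 25 pairs listed, 11 were members, 8 were found only by the 5′ ends of coding transcripts, 4 had 5′ ends that overlap head to head and 2 were found by none of these. Hspd1/Hspe1, the mitochondrial chaperonin pair, had transcript starts 108 bp apart and a peak at percentile 99.2 in both libraries. Col4a1/Col4a2, which encode the most common chains of type IV collagen, overlap by 21 bp and had a peak at percentile 85.7 in replicate 1 and 83.0 in replicate 2, above those of Col4a4/Col4a3 in the same libraries. Tap1/Psmb9, of antigen processing, was open by transcript starts in replicate 1 alone, at percentile 82.3. Ppat/Paics, of purine synthesis, overlap by 271 bp and had 2 peaks in both libraries.

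Open pairs with a CpG-poor midpoint had lower scores than the other open pairs, though still high within the library. The 30 pairs with a CpG ratio under 0.5 that were open in both libraries had a median highest percentile of 91.8 and 92.3, against 95.4 and 95.2 for the 664 others. Tas1r1/Nol9, of a taste receptor and a ribosome biogenesis kinase 753 bp apart, had a ratio of 0.162 and a peak at 96.4 and 91.9. At this distance the ratio describes the DNA between the 5′ ends and not the DNA around them.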
